A study of Homo sapiens with 4 samples.

Results

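SREBF1 and the genes of de novo fatty acid synthesis were followed in MV4-11 cells with and without knockdown of IRF1. The 9 genes were SREBF1, FASN, SCD, ACACA, ACLY, ACSS2, SLC25A1, MID1IP1 and ELOVL6. They were taken by symbol from the 23622 genes of the deposited RNA-seq table, and all 9 were found there. MV4-11 is a human acute myeloid leukemia line of monocytic character that carries a KMT2A rearrangement and the FLT3 internal tandem duplication. The control group (sh-NC) held 2 libraries, which the sample labels describe as untreated, and the knockdown group (sh-IRF1) held 2 libraries. Per the study's methods, hairpins were delivered by lentivirus from the pLKO.1 vector and infected cells were selected with puromycin, so that all groups were transduced and selected. The labels do not give the hairpin behind each sh-IRF1 library, and nothing states that the libraries of a group came from separate cultures, so p-values measure only the spread between these samples.

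SREBF1 encodes SREBP1, a membrane-bound transcription factor that is cleaved and enters the nucleus when lipid is scarce or insulin signaling is active, and that turns on the genes of fatty acid synthesis. In that pathway citrate leaves the mitochondrion, is split into acetyl-CoA, is carboxylated to malonyl-CoA, and is built into palmitate, which is then elongated and desaturated. Many leukemia and solid tumor cells keep this pathway active to supply membrane lipids. IRF1 is a transcription factor of the interferon response.

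The study's 2 designed hairpin targets in IRF1 are shown because the perturbation rests on them. Each was found in the coding sequence of the MANE Select transcript in GENCODE 44 on GRCh38, on the minus strand, the first in exon 7 of 10 and the second in exon 8 of 10.
sh-IRF1#1 target, chr5:132486284-132486304: gcaccagtgatctgtacaact
sh-IRF1#2 target, chr5:132485672-132485692: ggaaattacctgaggacatca

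Promoter windows from RefSeq on GRCh38.p14 matched 8 of the 9 genes, with 12 windows in all, and FASN had no entry. The SREBF1 window lies at the outermost end of the gene, so any start further downstream in SREBF1 is not covered. Each window reached from 250 bases before a transcription start to 50 bases after it, and only the 250 upstream bases are printed, read 5' to 3' along the gene. SREBF1 and SCD are shown as the tested genes that fell most, MID1IP1 as the gene with a sterol response element core, and both windows of ACSS2 as the gene that rose. Capitals mark every match, on either strand, to GGGCGG (GC box), CCAAT, or TCACNCCAC (sterol response element core).
SREBF1 promoter, chr17:17836987-17837236, minus strand: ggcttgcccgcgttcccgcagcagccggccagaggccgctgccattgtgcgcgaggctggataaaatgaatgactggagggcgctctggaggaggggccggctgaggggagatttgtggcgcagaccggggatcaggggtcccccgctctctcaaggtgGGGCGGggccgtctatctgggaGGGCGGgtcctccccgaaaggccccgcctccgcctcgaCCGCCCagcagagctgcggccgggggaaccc
SCD promoter, chr10:100346983-100347232, plus strand: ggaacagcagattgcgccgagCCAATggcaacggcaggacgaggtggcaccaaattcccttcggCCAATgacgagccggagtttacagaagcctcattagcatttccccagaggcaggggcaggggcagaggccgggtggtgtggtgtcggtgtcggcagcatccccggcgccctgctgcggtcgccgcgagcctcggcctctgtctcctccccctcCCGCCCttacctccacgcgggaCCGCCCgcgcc
MID1IP1 promoter, chrX:38801209-38801458, plus strand: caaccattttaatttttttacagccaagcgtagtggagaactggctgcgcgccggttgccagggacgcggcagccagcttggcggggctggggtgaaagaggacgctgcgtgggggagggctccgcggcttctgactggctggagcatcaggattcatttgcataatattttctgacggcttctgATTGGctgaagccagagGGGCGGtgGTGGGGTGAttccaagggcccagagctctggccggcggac
ACSS2 promoter, chr20:34874739-34874988, plus strand: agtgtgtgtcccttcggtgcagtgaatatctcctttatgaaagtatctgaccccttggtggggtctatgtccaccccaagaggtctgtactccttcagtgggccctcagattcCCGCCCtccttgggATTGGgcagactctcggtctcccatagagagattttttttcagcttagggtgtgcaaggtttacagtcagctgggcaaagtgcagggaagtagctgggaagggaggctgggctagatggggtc
ACSS2 promoter, chr20:34876362-34876611, plus strand: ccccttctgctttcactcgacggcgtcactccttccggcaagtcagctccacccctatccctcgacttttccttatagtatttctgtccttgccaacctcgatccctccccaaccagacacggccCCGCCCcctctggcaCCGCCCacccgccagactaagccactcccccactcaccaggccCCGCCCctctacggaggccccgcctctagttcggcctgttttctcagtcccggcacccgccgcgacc

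The sterol response element core, the sequence read by SREBP factors, was found in 1 of the 12 windows, that of MID1IP1, where it lay on the reverse strand and began 40 bases before the start. Over 35116 windows of the same length the share was 1.13%. The E-box CACGTG was in 0 of the 12 windows and 7.26% of all windows, and the core of the interferon response element that IRF proteins read (GAAA, any 2 bases, GAAA) was in 0 of the 12 and 3.57% of all. CCAAT was in the windows of 6 of the 8 genes, against 42.6% of the 10131 tested genes with a window. The GC box was in the windows of all 8, against 75.9% of those genes, and neighbouring GC boxes partly overlapped in ACACA and SLC25A1. None of these matches overlapped a match to another motif in the windows printed above. These matches describe the letters of short windows and say nothing about binding.

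The authors deposited, for each gene, its reads divided by 1 size factor per library, called normalized counts here. The reads behind them were recovered as whole multiples and summed to between 17635908 and 18695337 per library. Differences between groups were taken as log2 fold changes after adding 1 to each normalized count, a scale that understates changes of low genes, and were tested with limma over the 14120 genes at 10 or more in at least 2 libraries. P-values were adjusted by Benjamini-Hochberg over all of these genes, and a gene was called at an adjusted p under 0.05. IRF1 (ENSG00000125347), the targeted gene, stood at 785 and 738 in sh-NC and at 430 and 432 in sh-IRF1, 56.6% of the control level (log2 fold change -0.82, SE 0.0904, adjusted p = 1.69e-10 from limma). With 22.9% of its exonic bases shared with an antisense and an unnamed gene, and strand use in counting not given in the sources used here, part of these reads may belong to those genes. An exact permutation of 2 libraries against 2 has a smallest two-sided p of 0.33, so calls rest on the spread that limma pools over genes.

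SREBF1 (ENSG00000072310; chr17:17810399-17837002, minus strand, GRCh38) had normalized counts of 11728 and 11361 in sh-NC and of 5141 and 4928 in sh-IRF1. Both knockdown libraries lay far below both controls, and the difference was many times the spread within a group. The mean fell from 11544 ± 259 to 5035 ± 150 (SD, n = 2 each), to 43.6% of control. The log2 fold change was -1.20 (SE 0.0331, 95% interval -1.26 to -1.13, adjusted p = 1.50e-31 from limma), and SREBF1 ranked 6 by p among all genes tested. Of its exonic bases, 6.75% are shared with RAI1 on the opposite strand. The table gives 1 value per gene, so the SREBP1a and SREBP1c transcripts, which start from different first exons, were not separated.

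SREBF2 (ENSG00000198911), the paralog that mainly drives cholesterol synthesis, did not pass the test. It stood at 9861 and 9585 in sh-NC and at 9963 and 10243 in sh-IRF1 (log2 fold change 0.06, 95% interval -0.01 to 0.12, adjusted p = 0.143 from limma). When libraries were scaled by their total count, its log2 fold change was 0.10 and the adjusted p was 0.00584, so that its call depended on the scaling. Within each library, the log2 ratio of SREBF1 to SREBF2 was 0.25 and 0.25 in sh-NC and -0.95 and -1.06 in sh-IRF1. SREBF1 thus had more reads than its paralog in both controls and fewer in both knockdown libraries (exact two-sided permutation p = 0.33, the smallest the design allows).

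**Figure D1:**
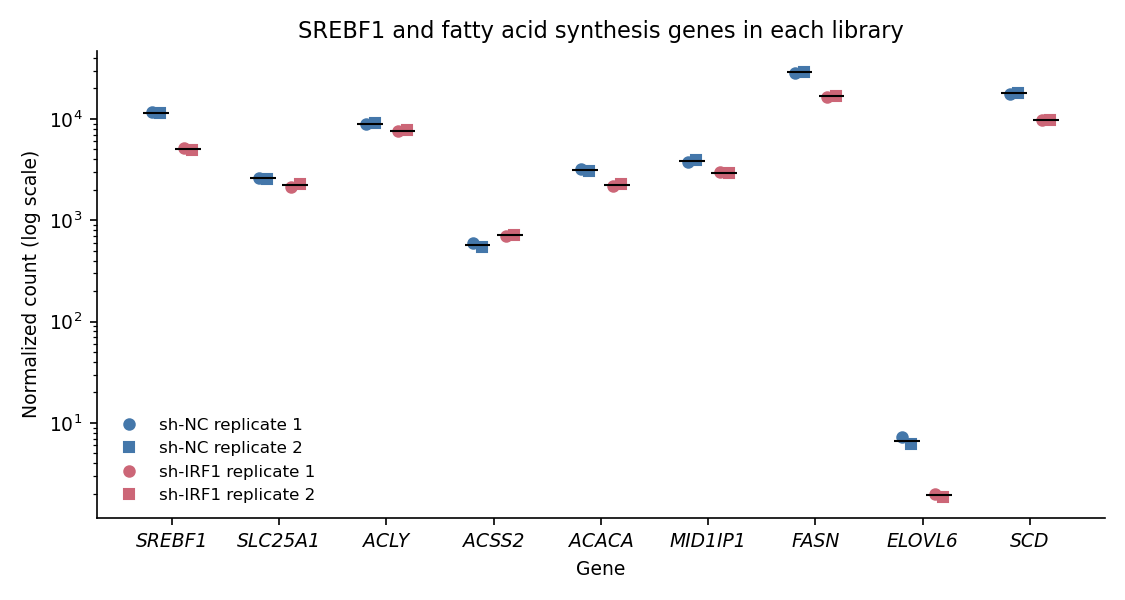
Normalized count (log scale, y axis) of each gene (x axis) in the 4 libraries, with circles for replicate 1, squares for replicate 2 and a black bar at the group mean (n = 2). The sh-IRF1 libraries sit below the sh-NC libraries in 8 genes and above them in ACSS2, and ELOVL6 rests on 7, 6, 2 and 2 reads.

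All 9 genes had groups that did not overlap, 8 with both sh-IRF1 libraries below both controls, and ACSS2 with both above. ELOVL6, 1 of the 8 below, had at most 7 reads in a library and was not among the genes tested. Of the 8 that were tested, 7 were lower in this sense and 1 higher. Over the 14120 genes tested, 35.0% were lower in this sense and 34.2% higher. Of the 8 genes that passed the filter on low values, 7 fell and 1 rose at an adjusted p under 0.05, whereas 21.9% of all genes tested fell and 20.3% rose. Beyond a log2 fold change of 0.5 either way, 3 of the 8 fell (SREBF1, FASN and SCD) and 0 rose, against 7.56% and 8.27% of all genes. The median log2 fold change was -0.44 over the 8 genes and -0.0019 over all genes tested. The study had already listed SREBF1, SCD and FASN among its top downregulated genes by p in these data. The 9 genes were chosen with such results known, so these shares and this median are not independent support. Together the 9 genes took 0.426% and 0.430% of the reads in sh-NC and 0.267% and 0.271% in sh-IRF1.

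The first steps of the pathway, which bring citrate and acetyl-CoA into the cytosol, moved least. SLC25A1 (ENSG00000100075; chr22:19175581-19178739, minus strand), the mitochondrial citrate carrier, stood at 2640 and 2566 in sh-NC and at 2149 and 2270 in sh-IRF1. It fell to 84.9% of control (log2 fold change -0.24, SE 0.0480, adjusted p = 6.40e-05 from limma), and the reads of its pseudogenes in the table came to at most 0.0414% of its own. ACLY (ENSG00000131473; chr17:41866917-41930542, minus strand), the ATP citrate lyase that splits citrate into acetyl-CoA and oxaloacetate, stood at 8828 and 9142 in sh-NC and at 7539 and 7716 in sh-IRF1. It also fell to 84.9% of control, with a log2 fold change of -0.24 (SE 0.0320, 95% interval -0.30 to -0.17, adjusted p = 2.91e-08 from limma). In both genes the change was small next to that of SREBF1, though larger than the distance between replicates.

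ACSS2 (ENSG00000131069; chr20:34872146-34927962, plus strand), the cytosolic enzyme that makes acetyl-CoA from acetate, moved the other way. Its normalized counts were 591 and 551 in sh-NC and 707 and 720 in sh-IRF1. Means were 571 ± 28.5 and 713 ± 8.74 (SD, n = 2 each), so ACSS2 rose to 125% of control (log2 fold change 0.32, SE 0.0860, 95% interval 0.15 to 0.50, adjusted p = 0.00192 from limma). ACLY and ACSS2 are the alternative sources of cytosolic acetyl-CoA, and the ACSS2 to ACLY log2 ratio was -3.90 and -4.05 in sh-NC and -3.41 and -3.42 in sh-IRF1. The ratio was higher in both knockdown libraries by a mean of 0.56 (exact two-sided permutation p = 0.33). ACLY still had the higher level in every library.

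ACACA (ENSG00000278540; chr17:37084992-37406836, minus strand), acetyl-CoA carboxylase 1 and the committed step of the pathway, stood at 3187 and 3058 in sh-NC and at 2165 and 2291 in sh-IRF1. It fell to 71.4% of control (log2 fold change -0.49, SE 0.0466, adjusted p = 3.11e-12 from limma). MID1IP1 (ENSG00000165175; chrX:38801440-38806537, plus strand) encodes a small protein that promotes the polymerization and activity of the carboxylase, and its promoter window is the one printed above with the sterol response element core. It stood at 3789 and 3947 in sh-NC and at 2998 and 2903 in sh-IRF1. It fell to 76.3% of control (log2 fold change -0.39, SE 0.0422, adjusted p = 1.00e-10 from limma). An antisense gene, MID1IP1-AS1, shares 7.79% of its exonic bases. The 95% interval of the log2 fold change was -0.58 to -0.39 for the carboxylase and -0.48 to -0.31 for its activator, and the difference between them was not tested.

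FASN (ENSG00000169710; chr17:82078338-82098294, minus strand), the fatty acid synthase that assembles palmitate from malonyl-CoA, had the highest normalized count of the 9 genes. It stood at 28521 and 29104 in sh-NC and at 16600 and 16790 in sh-IRF1, and so fell to 57.9% of control (log2 fold change -0.79, SE 0.0245, adjusted p = 1.30e-29 from limma). SCD (ENSG00000099194; chr10:100347233-100364826, plus strand), the stearoyl-CoA desaturase that introduces the first double bond, stood at 17846 and 18182 in sh-NC and at 9714 and 9883 in sh-IRF1. It fell to 54.4% of control, a log2 fold change of -0.88 (SE 0.0278, adjusted p = 2.06e-29 from limma). FASN and SCD ranked 12 and 16 by p among all genes tested, whereas the other called genes besides SREBF1 ranked between 604 (ACACA) and 3706 (ACSS2). Replicates of FASN and SCD differed by little, and the groups stood well apart.

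ELOVL6 (ENSG00000170522; chr4:110045846-110199199, minus strand), the elongase that extends palmitate to stearate, was near the limit of detection. It had 7 and 6 reads in sh-NC and 2 in each sh-IRF1 library, and did not pass the filter on low values. Scaled to depth, the summed reads gave a ratio of 0.289 with an exact 95% interval of 0.0687 to 0.936, which covers counting error only. Without the filter limma gave a log2 fold change of -1.38 (SE 0.897, adjusted p = 0.307), so no difference could be called at this depth.

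**Figure D2:**
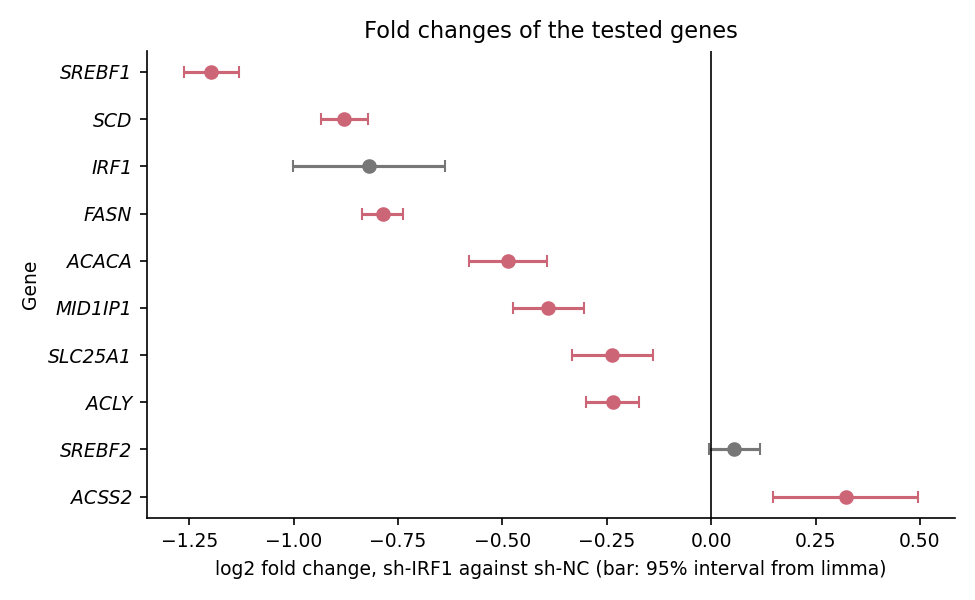
The log2 fold change after knockdown (sh-IRF1 over sh-NC, x axis) for the 8 tested genes in red and for SREBF2 and IRF1 in grey, with bars for the 95% interval from limma (n = 2 per group). SREBF1, SCD and FASN lie between -1.20 and -0.79, ACACA, MID1IP1, SLC25A1 and ACLY between -0.49 and -0.24, SREBF2 at 0.06 and ACSS2 at 0.32.

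SREBF1 had the lowest log2 fold change of the 8 tested genes, so each mean ratio over it was bound to rise. The shifts below restate the fold changes above and are not further support. Within libraries, the log2 ratio of FASN to SREBF1 was 1.28 and 1.36 in sh-NC and 1.69 and 1.77 in sh-IRF1. That of SCD to SREBF1 was 0.61 and 0.68 in sh-NC and 0.92 and 1.00 in sh-IRF1. The mean shift was 0.41 for FASN, 0.32 for SCD, 0.71 for ACACA, 0.96 for ACLY and 1.52 for ACSS2, in each case with no overlap between groups (exact two-sided permutation p = 0.33 each, 11 ratios computed, adjusted p = 0.33 each). The ratio of FASN to ACACA, consecutive enzymes of the pathway, was 3.16 and 3.25 in sh-NC and 2.94 and 2.87 in sh-IRF1.

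Levels were compared between genes per kilobase of exonic sequence. In sh-NC the mean normalized count per kilobase was 3434 ± 45.3 for SCD, 3091 ± 44.2 for FASN, 1725 ± 42.7 for ACLY, 1402 ± 31.5 for SREBF1 and 1302 ± 26.4 for SLC25A1 (SD, n = 2 each). MID1IP1 followed at 801 ± 23.1, ACACA at 240 ± 7.03, ACSS2 at 109 ± 5.43 and ELOVL6 at 0.917 ± 0.0989. SCD ranked 127 and FASN 151 among the 14055 genes ranked on this scale. In sh-IRF1 the order changed in 1 place. SLC25A1, at 1105 ± 43.1 per kilobase, passed SREBF1, at 611 ± 18.2, and SREBF1 then lay level with MID1IP1 at 611 ± 14.0. SCD and FASN, at 1868 ± 22.8 and 1791 ± 14.4, kept their places, although with the longest transcript as the length FASN came before SCD and ACSS2 before ACACA in sh-IRF1, and SREBF1 before ACLY in sh-NC.

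The 5 genes outside the pathway whose profile over the 4 libraries lay nearest to that of SREBF1, by Euclidean distance of log2 values relative to sh-NC among 4220 genes with a mean of at least 1000, were ANP32B, MAPK6, EGR1, PDCD4 and GTF2H3. ANP32B, the nearest at a distance of 0.0661, stood at 6378 and 6295 in sh-NC and at 2721 and 2640 in sh-IRF1. MAPK6, an atypical MAP kinase, and EGR1, an immediate-early transcription factor, followed at 0.0699 and 0.0744. With 2 groups, such likeness is mainly a like fold change.

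SREBF1, FASN, ACACA and ACLY, 4 of the 9 genes, lie on chromosome 17, which carried 6.31% of the genes tested. Of its 891 tested genes, 22.2% fell, near the 21.9% of all genes. The nearest tested protein-coding genes on either side of the 9 numbered 18, of which 5 fell and 7 rose, with a median log2 fold change of 0.17. Over all genes tested, 21.9% fell and 20.3% rose. Beside SREBF1, RAI1 fell slightly (log2 fold change -0.15, adjusted p = 0.00531 from limma) and TOM1L2 rose (0.75, adjusted p = 1.50e-07 from limma). Beside FASN, both DUS1L and CCDC57 rose, by 0.24 and 0.41 on the log2 scale. The neighbours of ACSS2, GGT7 and GSS, rose as ACSS2 did, by 0.52 and 0.26, and those of ACACA, AATF and TADA2A, fell, with log2 fold changes of -0.19 and -0.27.

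**Figure D3:**
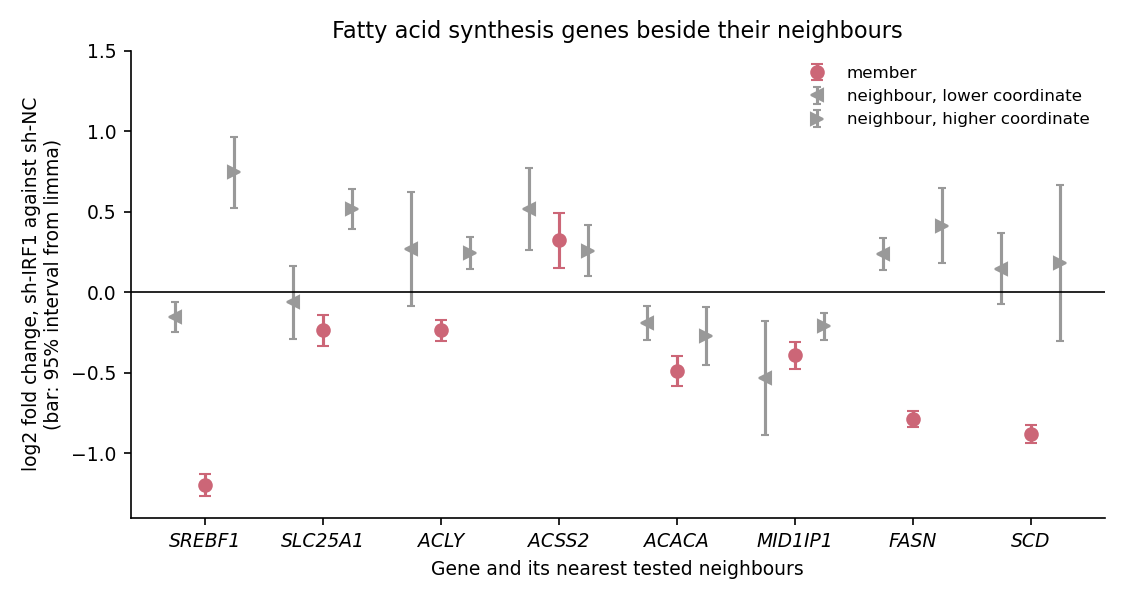
The log2 fold change after knockdown (sh-IRF1 over sh-NC, y axis) for each tested gene (red circle) and its nearest tested protein-coding neighbours at lower and higher coordinates (grey triangles), with bars for the 95% interval from limma (n = 2 per group). SREBF1 at -1.20 stands between RAI1 at -0.15 and TOM1L2 at 0.75, and FASN at -0.79 between 2 neighbours that rose.

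Genes of the machinery that processes and controls SREBP were called in both directions. SCAP escorts SREBP from the endoplasmic reticulum, INSIG proteins hold it back, and site-1 and site-2 proteases cut it. Of 21 genes tested, 7 fell (33.3%, against 21.9% of all genes) and 3 rose (14.3%, against 20.3%), with a median log2 fold change of -0.044. The same shares of all genes, 21.9% lower and 20.3% higher, are the background for each list that follows. The lowest p among those that fell belonged to RNF145 (-0.93), a ubiquitin ligase that acts on SCAP, and RXRA (-0.45), the partner of the liver X receptors. SPRING1 (0.62), which supports SREBP cleavage, and NR1H2 (0.43), a liver X receptor, rose, although 22.1% of the exonic bases of NR1H2 are shared with another gene. NR1H3, the other liver X receptor, fell (-0.66, adjusted p = 0.00122 from limma). SCAP did not pass the test (-0.09, adjusted p = 0.152 from limma), whereas INSIG1, itself a target of SREBP, fell (-0.33). NR1H3 and the last pair were named after their values were seen.

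Around the carboxylase, 3 of 9 tested genes fell (33.3%) and 1 rose (11.1%), with a median of 0.061. AMP-activated kinase inhibits the carboxylase by phosphorylation, and its catalytic subunit PRKAA1 fell (log2 fold change -0.46), as did CAB39 (-0.26), a scaffold of its upstream kinase. STK11, that upstream kinase, rose slightly (0.18). ACACB, the mitochondrial carboxylase isoform, stood at 419 and 434 in sh-NC and at 449 and 471 in sh-IRF1, and did not pass the test (0.11, adjusted p = 0.420 from limma); it was named after its values were seen.

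Among genes that supply citrate, acetyl-CoA and NADPH, 7 of 20 tested fell (35%) and 8 rose (40%), both above the background shares, with a median of 0.11. Scaling libraries by their total count left 4 lower. PGD, a pentose phosphate enzyme that makes NADPH, which fatty acid synthase consumes, stood at 5386 and 5113 in sh-NC and at 7694 and 7597 in sh-IRF1. Both knockdown libraries lay above both controls, and PGD rose (log2 fold change 0.54, adjusted p = 6.49e-18 from limma). PGLS, of the same pathway, fell (-0.23), as did CS, the citrate synthase (-0.17).

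Of 12 further desaturation and elongation genes tested, 6 fell (50%, against 21.9% of all genes) and 2 rose (16.7%, near the 20.3% of all genes), with a median of -0.20. FADS2, the delta-6 desaturase, went from 9201 and 9081 in sh-NC to 5646 and 5448 in sh-IRF1 (log2 fold change -0.72, adjusted p = 3.81e-23 from limma). FADS1, the delta-5 desaturase, fell less (-0.34). TECR, the last enzyme of the elongation cycle, rose slightly (0.11), as did FADS3 (0.38).

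Of 11 tested genes of fatty acid activation, 4 fell (36.4%, against 21.9% of all genes) and 0 rose, with a median of -0.14, but only 2 fell when libraries were scaled by their total count. The acyl-CoA synthetases ACSL3 and ACSL4, which load free fatty acids onto coenzyme A, led them at log2 fold changes of -0.76 and -0.47. Glycerolipid synthesis, which uses these products, had 2 of 14 tested genes lower (14.3%) and 8 higher (57.1%, against 20.3% of all genes), with a median of 0.20. The acyltransferases AGPAT5 (-0.74) and AGPAT3 (-0.24) fell and AGPAT1 (0.34) rose, but another gene overlaps 30.5% of the exonic bases of AGPAT1. GPAT3 had 2 reads in all in sh-NC and 46 in sh-IRF1, a depth-scaled ratio of 21.6 with an exact 95% interval of 5.66 to 184 for counting error only. It passed the filter on low values only through the sh-IRF1 libraries, where it was high, so its call is not counted as support, although it is 1 of the 8 higher genes.

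The separate mitochondrial fatty acid synthesis pathway, which makes the precursor of lipoic acid, had 2 of 10 tested genes lower (20%, near the 21.9% of all genes) and 0 higher, with a median of -0.029. CBR4 (-0.53) and MCAT (-0.24) were the genes that fell. Cholesterol synthesis and uptake, largely under SREBP2, had 6 of 23 tested genes lower (26.1%, near the 21.9% of all genes) and 8 higher (34.8%, against 20.3%), with a median of 0.12. LSS, the lanosterol synthase, fell (-0.65), whereas DHCR7 and MSMO1, which act late in the pathway, rose (0.54 and 0.41). Over the 8 lists together, 37 of 120 tested genes fell (30.8%, against 21.9% of all genes) and 30 rose (25%, against 20.3%), with a median of 0.024. When libraries were scaled by their total count the balance turned, with 30 lower and 36 higher.

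All 12 myeloid markers had reads in every library, and their summed normalized count was 32899 and 32800 in sh-NC and 29208 and 29023 in sh-IRF1. FLT3 was the largest part of this sum, at 17391 and 17412 in sh-NC and at 12745 and 12634 in sh-IRF1. The fall of the sum therefore does not stand for the markers in general. Of 12 markers of other lineages, 5 were in the table, with sums of 1342 and 1567 in sh-NC and 3414 and 3326 in sh-IRF1, most of it from PECAM1, which monocytes also express. COL1A1 and ALB had at most 5 reads in any library, and the T cell markers CD3D and CD3E, MS4A1, HBB, EPCAM and PLIN1 were not among the genes used here. Of the 12 myeloid markers, 5 fell (41.7%, against 21.9% of all genes tested) and 4 rose (33.3%, against 20.3%). Both sums moved with the knockdown, and their part in the changes of the fatty acid genes was not tested. In such bulk samples, fewer cells of a type and less RNA per cell cannot be told apart.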

How the data were processed

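RNA from MV4-11 cells was measured in 2 sh-NC and 2 sh-IRF1 libraries. Per the submitters' processing notes, reads were aligned with HISAT2 (2.0.5) to hg38. The counting tool, annotation and strand setting are not given in the sources used here. The deposited values are a normalized signal, for which the authors scaled gene reads by 1 factor in every library. Reads were recovered as whole multiples, and the table had 0 further sample columns. Symbols matched 23456 of 23622 identifiers, and positions came from GENCODE 44.

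Values were tested with limma (3.58.1, R 4.3.3; trend and robust shrinkage, median prior degrees of freedom 43) on log2(value + 1), with Benjamini-Hochberg adjustment over 14120 genes at 10 or more in at least 2 libraries. edgeR (4.0.16) and DESeq2 (1.42.0) on recovered reads, other scalings, filters and pseudocounts, a replicate block and leaving out each library were alternatives. On simulated reads for 2 libraries against 2, limma recovered 170 of 200 genes changed by 1 on the log2 scale and called 8 unchanged genes among 14011. The spread between simulated replicates was set in advance and not fitted to these data. Far fewer genes were changed than were called here, so these rates may not carry over to the data. Replicates differed by more than sampling noise (chi-square per gene 2.93 in sh-NC and 2.47 in sh-IRF1).

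The genes and lists were chosen with earlier results of these data known. Named by rule were the 9 genes, IRF1 and SREBF2, up to 2 genes per list and direction with the lowest p, the 5 genes nearest in profile to SREBF1, and each gene's nearest neighbours. Marker genes, INSIG1, SCAP, NR1H3 and ACACB fall outside that rule. Some genes that the rule names are not reported here.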

Additional observations from a re-analysis of the deposited data

How the results depend on the processing

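Under all 15 alternatives (other scalings, filters, pseudocounts and shrinkage, edgeR, DESeq2, a replicate block, and each library left out) the 8 tested genes kept their direction and stayed called, 7 lower and 1 higher. The log2 fold change of SREBF1 ran from -1.23 to -1.15, FASN from -0.80 to -0.74, SCD from -0.89 to -0.83 and ACSS2 from 0.27 to 0.37, with a largest adjusted p of 0.0334 for ACSS2. A minimum log2 fold change of 0.5 left 3 of the 8 lower and 0 higher, 11 genes of the related lists lower and 7 higher, and 1067 of all genes lower and 1168 higher, since it asks for more. Scaling by total counts turned the balance of calls, with 2645 of all genes lower and 3433 higher in place of 3092 and 2861, and 30 list genes lower and 36 higher in place of 37 and 30; activation genes then numbered 2 lower in place of 4 and supply genes 4 in place of 7. With each library left out in turn, 2405 to 2744 of all genes were lower and 2037 to 2685 higher, and 25 to 34 list genes were lower and 20 to 27 higher. Without sh-IRF1 replicate 1, cholesterol genes numbered 2 lower in place of 6 and 5 higher in place of 8, glycerolipid genes 5 higher in place of 8, and desaturation and elongation genes 0 higher in place of 2 (1 without sh-NC replicate 1 or sh-IRF1 replicate 2). Without sh-IRF1 replicate 2, glycerolipid genes numbered 4 higher, and without either sh-IRF1 library the supply genes numbered 4 lower in place of 7. Without sh-NC replicate 2, activation genes numbered 2 lower in place of 4, and mitochondrial genes 1 lower in place of 2 (also without sh-IRF1 replicate 2). Same-numbered libraries did not deviate together (correlation over 14120 genes -0.015). This shows no shared deviation, and it cannot tell whether same-numbered libraries shared a culture or preparation. A fit with the replicate number as a block changed no call of the 8 genes. With 2 libraries a group the spread of a single gene is poorly known, and depth limits ELOVL6 alone among the 9.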
